A study of Bos taurus with 46 samples.

Results

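A set of 10 genes that make, load and regulate MHC class I was followed in circulating leukocytes of pregnant heifers. They were chosen by symbol for their known role, with earlier results of these data known. All 10 were present among the 30675 genes of the NCBI count table, 25404 of which had a read. They comprise 3 genes for the class I heavy chain (*BOLA*, *BOLA-NC1* and *JSP.1*), the light chain *B2M*, the peptide transporter and its tether (*TAP1*, *TAP2* and *TAPBP*), the transactivator *NLRC5* and the immunoproteasome subunits *PSMB8* and *PSMB9*. All 10 passed the filter on low counts in every comparison.

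Leukocyte RNA of 23 Angus crossbred heifers was sequenced on D55 and again on D105 of pregnancy, giving 46 libraries. The AI heifers (n = 8) conceived by artificial insemination and are the controls. The other heifers received embryos produced in vitro, transferred in pairs, from Angus or Angus-crossbred oocytes, semen of a single Brahman male and a culture medium that held serum. IVP-Normal heifers (n = 6) carried fetuses below the weight limit set on AI fetuses, and IVP-LOS heifers (n = 9) carried fetuses at or above it, which the study calls large offspring syndrome. Every AI heifer carried a single fetus, while some heifers of both IVP groups carried a pair. The group of a heifer was set from the D105 fetus, which came after the D55 blood was drawn. The blood was the mother's own, taken into EDTA, and the leukocytes were recovered from the buffy coat after red cell lysis.

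MHC class I molecules show short peptides from inside the cell to CD8 T cells and natural killer cells. Proteasomes cut the peptides, with *PSMB8* and *PSMB9* taking the place of standard catalytic subunits in the immunoproteasome, and the transporter formed by *TAP1* and *TAP2* moves them into the endoplasmic reticulum. There tapasin, the product of *TAPBP*, holds the empty heavy chain and *B2M* beside the transporter until a peptide binds. *NLRC5* switches on transcription of the heavy chain genes and of their partners, and interferon gamma raises most of the pathway. Heavy chain genes are among the most variable genes of mammals, and in cattle the number of classical genes carried also differs between haplotypes.

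Levels are given as CPM, reads on a gene as a share of all reads on genes at a fixed common total, scaled by the trimmed mean of M-values (TMM) over the 46 libraries, and they compare libraries for 1 gene, not different genes. Between 18692653 and 24502012 reads per library fell on genes, and the 10 genes took 0.453% to 0.738% of them. The fewest reads behind any value were 164, for *BOLA*. On D105, all AI and all IVP-LOS libraries carry the label BACKUP and all others the label New, so within those groups day and library set cannot be told apart. Nor can group and library set be told apart where IVP-Normal is compared with AI or IVP-LOS on D105. The same holds for the day change in IVP-Normal against that in AI. Pan-leukocyte markers were high throughout, with group medians of their sum from 5766 to 6370 CPM. The summed neutrophil markers had group medians of 12.4 to 22.1 CPM on D55 and 141 to 552 CPM on D105. The summed eosinophil markers had group medians of 27.8 to 39.3 CPM on D55 and 30.5 to 42.8 CPM on D105. In these bulk samples, fewer cells of a type and less RNA per cell cannot be told apart.

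Counted reads of the heavy chain genes differed widely between heifers and little between the days of a heifer. *JSP.1*, a class I heavy chain gene, ranged on D55 from 201 CPM in heifer 519 to 2302 CPM in heifer 664, around a median of 696 CPM. On D105 it ranged from 124.8 CPM in heifer 648 to 2705 CPM in heifer 664, around a median of 644 CPM. Its range over all 46 libraries was thus 21.7-fold, the widest of the 10 genes. Heifer 664 stood above every other heifer on both days, while heifer 519 was the lowest on D55 and the second lowest, at 279 CPM, on D105.

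*BOLA*, a heavy chain gene counted far less often, showed the same attachment to the heifer with other heifers at its ends. Heifer 656 was the highest on both days, with 77.9 CPM on D55 and 78.8 CPM on D105. Heifer 590 had 12.3 CPM on D55 and 12.1 CPM on D105, and was the lowest and the second lowest. The median was 30.4 CPM on D55 and 32.3 CPM on D105. The 5 lowest heifers on D55 were also the 5 lowest on D105, and 4 of the 5 highest were shared.

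*BOLA-NC1*, a nonclassical heavy chain gene, varied less, over a 2.77-fold range. Its lowest heifer was 557 on both days, with 614 CPM on D55 and 786 CPM on D105. Its highest was heifer 669 on both days, with 1546 CPM and 1703 CPM. The medians were 1101 CPM on D55 and 1168 CPM on D105. A different heifer therefore held the top place for each of the 3 heavy chain genes, and kept it from D55 to D105.

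**Figure D1:**
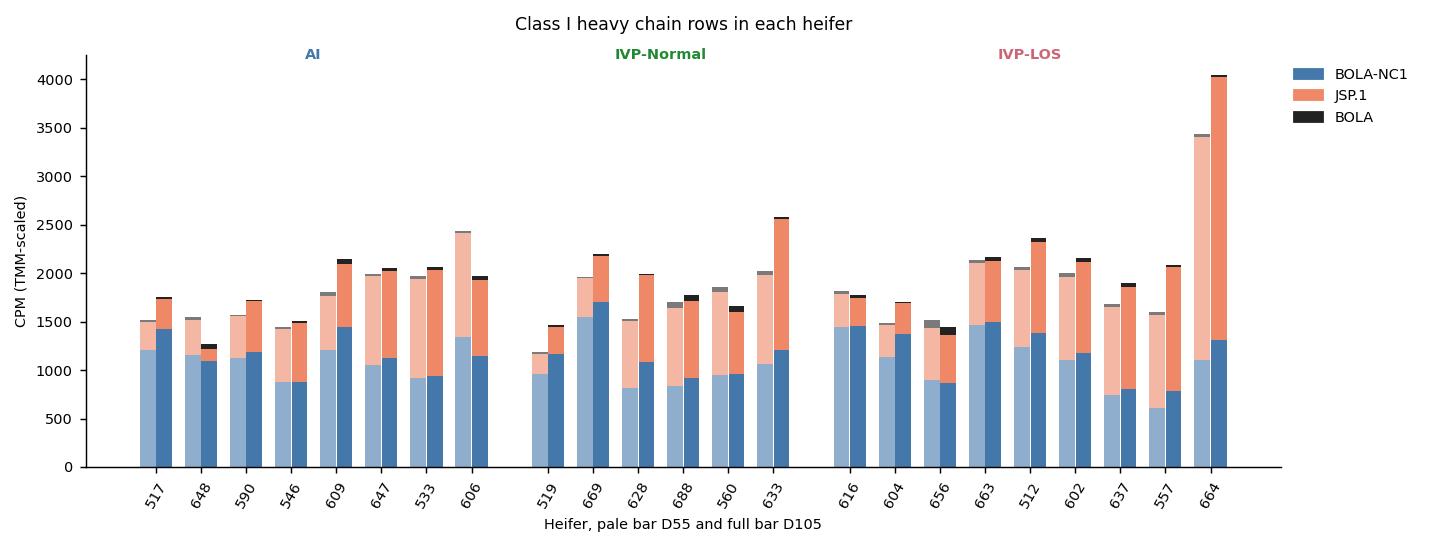
Stacked bars of the CPM (vertical axis, from 0) of *BOLA-NC1*, *JSP.1* and *BOLA* in each of the 23 heifers, with the D55 library as the pale bar and the D105 library as the full bar, ordered within each treatment group by *JSP.1* on D55. The make-up of the bar differed more between heifers than between the 2 days of a heifer, with heifer 664 the tallest on both days and heifer 648 losing most of its *JSP.1* segment.

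Expressed as a share of the reads on these 3 genes, *JSP.1* took 67.0% of them in heifer 664 on D55 (Wilson 95% interval 66.6% to 67.3%) and 66.8% on D105 (66.5% to 67.2%). These intervals cover counting error only. Over the 23 heifers the share of *JSP.1* ranged from 17.0% to 67.0% on D55, and the median heifer changed by 1.72 percentage points between days. The largest change was in heifer 648 of the AI group, where the share of *JSP.1* went from 23.6% (23.2% to 24.1%) to 9.87% (9.52% to 10.2%). In that heifer *JSP.1* went from 365 to 124.8 CPM, and *BOLA* from 23.6 to 43.1 CPM. The 3 heavy chain genes share much of their sequence, and reads that fit several of them equally well were not counted, so the split of reads between them is uncertain. The paper aligned the reads of all heifers to the same reference genome, with settings changed to improve specificity. Whether heavy chain alleles unlike that reference lost reads was not tested, so these CPM compare counted reads and not expression alone.

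The count table also holds rows named *BOLA_1*, *BOLA_2* and *BOLA_3*, which were included after the table was seen and whose identity the table does not give. *BOLA_3* had almost no reads. *BOLA_1* ranged 35.3-fold and *BOLA_2* 62.0-fold over the libraries, more than any of the 10 genes. Heifer 648 was the highest for *BOLA_2* on both days, at 2450 and 2654 CPM, so its 2 libraries were alike in that row while they differed in *JSP.1*. The sum of *BOLA*, *BOLA-NC1*, *JSP.1*, *BOLA_1* and *BOLA_2* ranged 2.50-fold over heifers on D55 and 2.54-fold on D105. This was less than *JSP.1*, *BOLA*, *BOLA_1* and *BOLA_2* on their own. A sum cannot span a wider fold range than its widest row, so nothing is concluded from that. The range of this sum was close to that of *BOLA-NC1* on D55, 2.52-fold, and wider than that on D105, 2.17-fold. Without *BOLA_1* and *BOLA_2*, the sum ranged 2.91-fold on D55 and 3.20-fold on D105.

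*B2M*, the light chain that every class I heavy chain pairs with, ranged from 763 CPM in heifer 560 to 1726 CPM in heifer 656 on D55, with a median of 1279 CPM. On D105 it ranged from 657 CPM, again in heifer 560, to 1790 CPM in heifer 604, with a median of 1431 CPM. Heifer 560 stood well below all others on both days. *B2M* was higher on D105 than on D55 in 19 of 23 heifers, by a median of 0.13 on the log2 scale.

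Whether the heifers differed was tested with edgeR's quasi-likelihood F-test of all heifer terms together, within treatment groups and after removal of the group and day means. Genes with a Benjamini-Hochberg false discovery rate (FDR) of at most 0.05 over all genes tested were called. This test called 6 of the 10 genes, beside 44% of the 16487 genes tested. They were *BOLA* (FDR = 2.26e-08), *JSP.1* (FDR = 3.52e-08), *BOLA-NC1* (FDR = 1.15e-07), *B2M* (FDR = 2.31e-05), *TAP2* (FDR = 0.000154) and *TAP1* (FDR = 0.0246). *TAPBP* (FDR = 0.108), *NLRC5* (FDR = 0.127), *PSMB8* (FDR = 0.647) and *PSMB9* (FDR = 0.795) were not called. DESeq2's likelihood ratio test called *TAPBP* and *NLRC5* as well. Cell type markers also differed between heifers, with all 6 B cell, all 6 monocyte and 6 of 7 T cell markers called, and their part in these differences was not tested.

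A second measure was the correlation of the D55 with the D105 level over the 23 heifers, computed on log2(CPM + 1). For the heavy chains, Pearson's r was 0.875 for *BOLA*, 0.892 for *BOLA-NC1* and 0.893 for *JSP.1* (each permutation p = 1e-05, the smallest that 100000 permutations give, and adjusted p = 0.000174 over all genes). Spearman's rho was 0.792, 0.889 and 0.907. *B2M* had r = 0.868 and rho = 0.801, with the same permutation p and adjusted p. Without the 2 heifers farthest from the D55 median, r of these 4 genes was 0.821, 0.853, 0.863 and 0.780.

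Among the loading genes, *TAP2* had r = 0.778 and rho = 0.764 (permutation p = 5e-05, adjusted p = 0.000546), and *TAPBP* had r = 0.682 and rho = 0.787 (permutation p = 0.0004, adjusted p = 0.00255). *TAP1* had r = 0.383 and rho = 0.445 (permutation p = 0.0705, adjusted p = 0.143). The remaining genes did not pass. *NLRC5* had r = 0.277 and rho = 0.261 (permutation p = 0.200, adjusted p = 0.319), *PSMB8* r = -0.166 and rho = -0.0870 (permutation p = 0.447, adjusted p = 0.580), and *PSMB9* r = -0.190 and rho = -0.260 (permutation p = 0.385, adjusted p = 0.519). Thus 6 of 10 relations passed, beside 37% of all genes tested. Within the 17 heifers whose D105 library was of the set BACKUP, r was 0.880 for *BOLA*, 0.894 for *BOLA-NC1*, 0.911 for *JSP.1* and 0.778 for *B2M*, and within the 6 of the set New it was 0.895, 0.918, 0.905 and 0.925.

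**Figure D2:**
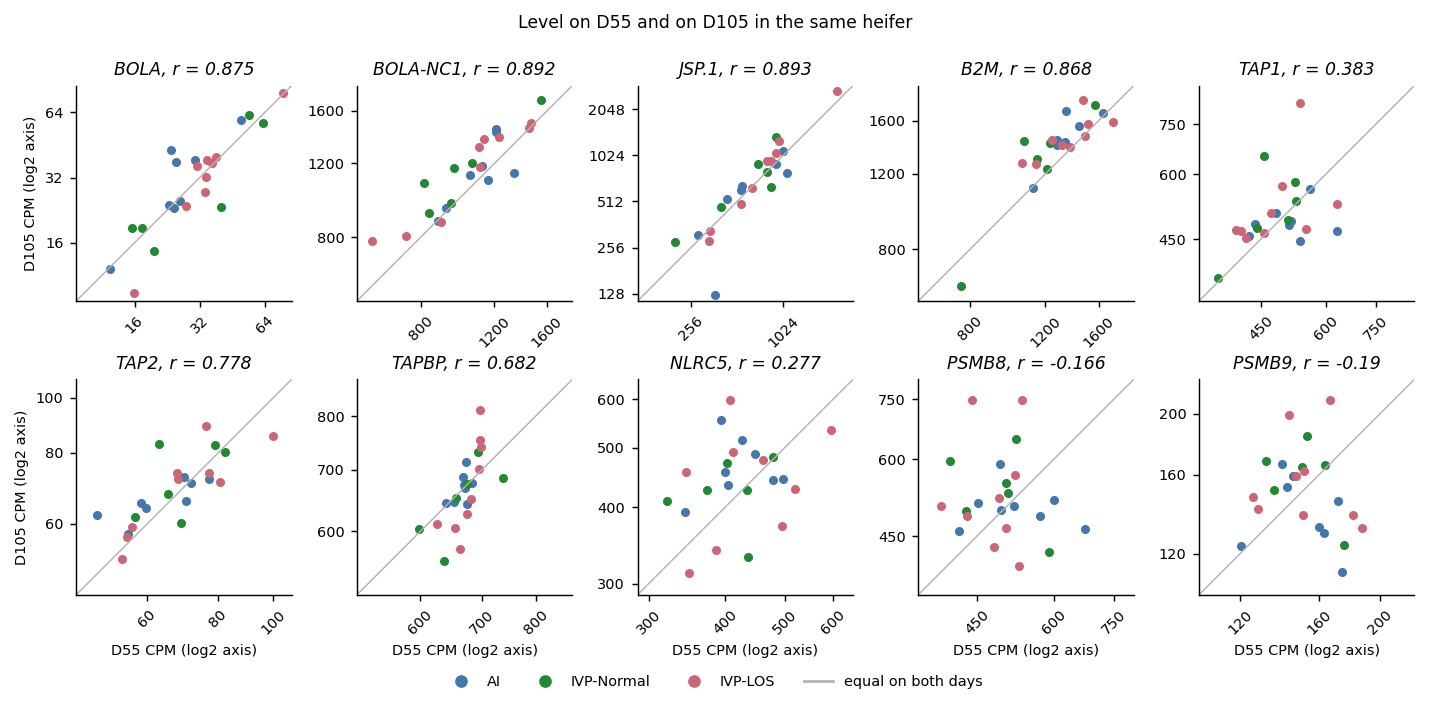
Level of each of the 10 genes in the same heifer on D55 (horizontal axis) and D105 (vertical axis), in CPM on log2 axes, with 1 point per heifer coloured by treatment group, a grey line where both days are equal and Pearson's r above each panel. Points lie along the line for the heavy chains and *B2M*, and form a cloud for *NLRC5*, *PSMB8* and *PSMB9*.

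With levels centred on the mean of each treatment group and day, the median r was 0.728 over the 10 genes and 0.379 over all 16487 genes tested. *BOLA-NC1*, *BOLA* and *JSP.1* had r of 0.908, 0.906 and 0.899, higher than that of 98.4%, 98.3% and 98.1% of genes. *PSMB8* and *PSMB9* had r of -0.12 and -0.21, higher than that of 7.21% and 3.74% of genes. *TAPBP* had an r of 0.683 at a small spread, since the SD of its heifer means was 0.0869 on the log2 scale, higher than that of 5.85% of genes.

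**Figure D3:**
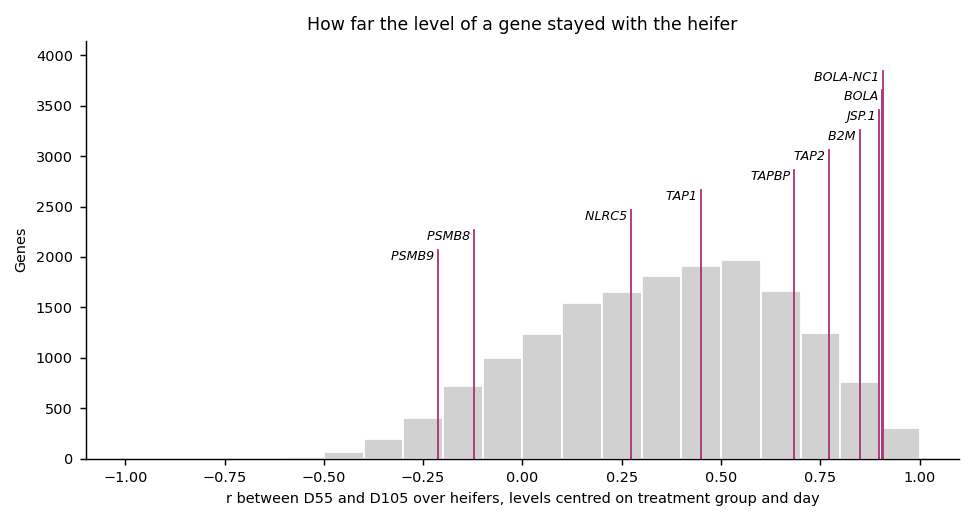
Number of genes (vertical axis) by the correlation of their D55 and D105 levels over heifers, centred on treatment group and day (horizontal axis), for 16487 genes in grey, with a line for each of the 10 genes. The 3 heavy chain genes lie at the right end and the immunoproteasome subunits *PSMB9* and *PSMB8* at the left.

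Of the transporter genes, *TAP1* ranged from 372 CPM in heifer 519 on D55 to 824 CPM in heifer 604 on D105. Heifer 519 was its lowest on both days, at 372 and 379 CPM. *TAP2* ranged from 48.9 CPM in heifer 648 to 99.7 CPM in heifer 663, both on D55. *TAPBP* was the steadiest of the 10 genes and ranged 1.46-fold, from 557 to 812 CPM. A microRNA gene, *MIR2376*, lies next to *TAPBP* in RefSeq's annotation of ARS-UCD2.0, and reads that overlap 2 genes were counted for neither.

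*NLRC5* ranged from 313 CPM in heifer 664 to 599 CPM in heifer 637, both on D105. The median size of its change between the 2 days of a heifer was 0.19 on the log2 scale. Its relation with each of the other 9 genes was computed on each day, 18 relations in all. Only *TAPBP* on D105 passed, with r = 0.681 and rho = 0.606 (permutation p = 0.0004, adjusted p = 0.00405 over all genes), beside 34.9% of genes on that day. Without the 2 heifers farthest from the median of *NLRC5*, 664 and 637, r was 0.587. On D55, where 1.64% of genes passed, *NLRC5* and *TAPBP* had r = 0.0228 (permutation p = 0.918, adjusted p = 0.971). Its r with the heavy chains on D55 was -0.400 for *BOLA*, 0.519 for *BOLA-NC1* and -0.397 for *JSP.1*, and on D105 it was 0.323, 0.0769 and -0.241 (adjusted p from 0.134 to 0.806).

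The 2 immunoproteasome subunits moved together over the 46 libraries, with r = 0.853 between *PSMB8* and *PSMB9*, given as a description because libraries of a heifer and of a day are not independent. *PSMB8* ranged from 393 to 748 CPM and *PSMB9* from 112.3 to 210 CPM. In the RefSeq table *TAP1* lies between *PSMB8* and *PSMB9*, and its r over the libraries was 0.462 with *PSMB8* and 0.366 with *PSMB9*. Neither subunit kept its heifers in order: 1 of the 5 highest heifers was shared between days for *PSMB8* and 0 of 5 for *PSMB9*.

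D105 was then compared with D55 in each treatment group. None of the 10 genes was called by edgeR in the AI group, where 9.95% of all genes were called, in the IVP-Normal group, where 2.45% were, or in the IVP-LOS group, where 0.251% were. In these unpaired fits none had an unadjusted p under 0.05 either, and none was called by DESeq2 or edgeR's likelihood ratio test. In the AI group the log2 fold changes ran from -0.11 (standard error 0.09) for *PSMB9* to 0.29 (standard error 0.28) for *BOLA*. In the IVP-Normal group, whose libraries are all of the set New, they ran from -0.11 (standard error 0.45) for *BOLA* to 0.19 (standard error 0.39) for *JSP.1*. In the IVP-LOS group they ran from -0.02 (standard error 0.30) for *BOLA* to 0.18 (standard error 0.11) for *PSMB8*, which was 0.02 without heifers 604 and 664. With the heifer as a block, since the same heifers were sampled on both days, 2603, 838 and 162 genes were called in the 3 groups in place of 1517, 374 and 38, and 0 of the 10 genes in each. The block gave an unadjusted p under 0.05 for 2 of the 10 genes in AI, 1 in IVP-Normal and 1 in IVP-LOS heifers. They were *BOLA* (0.25 on the log2 scale, edgeR FDR = 0.141) and *B2M* (0.13, FDR = 0.0996) in AI, and *BOLA-NC1* in both IVP-Normal (0.19, FDR = 0.218) and IVP-LOS (0.15, FDR = 0.226). Over all groups, *BOLA-NC1* and *B2M* were each higher on D105 in 19 of 23 heifers.

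Of 47 other genes of the class I pathway, 6 were called by day in AI heifers, beside the 9.95% of all genes called there, and 5 of the 6 were higher on D105. The higher genes were *IFNGR1* (log2 fold change 0.74, standard error 0.12, edgeR FDR = 0.00062) and *IFNGR2* (0.56, 0.13, FDR = 0.0108), the chains of the interferon gamma receptor, *JAK2* (0.61, 0.12, FDR = 0.00324) and *JAK1* (0.25, 0.08, FDR = 0.0456), the kinases bound to it, and *STAT2* (1.21, 0.36, FDR = 0.0383), a transcription factor of the type I interferon response. *NFYB*, a subunit of a factor that binds class I and class II promoters, was lower (-0.19, 0.06, FDR = 0.0449). None of the 47 was called in IVP-Normal or IVP-LOS heifers, and the difference of the day change from that in AI was called for 0 of the 47 in both. Among 9 interferon gamma-responsive genes tested, 1 was called in AI, lower on D105, and 0 in each IVP group. Their median log2 fold change by day was -0.03 in AI, -0.07 in IVP-Normal and -0.15 in IVP-LOS. The summed level of the 12 such genes measured had medians of 997 CPM on D55 and 996 CPM on D105 in AI. Of 20 type I interferon-stimulated genes measured, 7 were called higher in AI, 4 in IVP-Normal and 0 in IVP-LOS heifers, where 9.95%, 2.45% and 0.251% of all genes were called. Their summed level had medians of 906 CPM on D55 and 1700 CPM on D105 in AI, 921 and 1398 CPM in IVP-Normal, and 897 and 1076 CPM in IVP-LOS. The median log2 fold change by day of the 20 genes was 0.62 in AI, 0.34 in IVP-Normal and 0.47 in IVP-LOS. The difference of the day change from that in AI was called for 0 of the 20 in both IVP groups. Of the neutrophil markers, 4 of 4 tested were called higher on D105 in AI and in IVP-Normal heifers and 0 of 4 in IVP-LOS heifers. Their median log2 fold change was 4.83 in AI, 3.79 in IVP-Normal and 4.15 in IVP-LOS. Of 6 monocyte markers, 2 were called higher in AI heifers and 0 in each of the other groups. The difference of the day change from that in AI was called for 0 of 4 neutrophil and 0 of 6 monocyte markers in both IVP groups. The part of these cells in the partners' change was not tested.

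**Figure D4:**
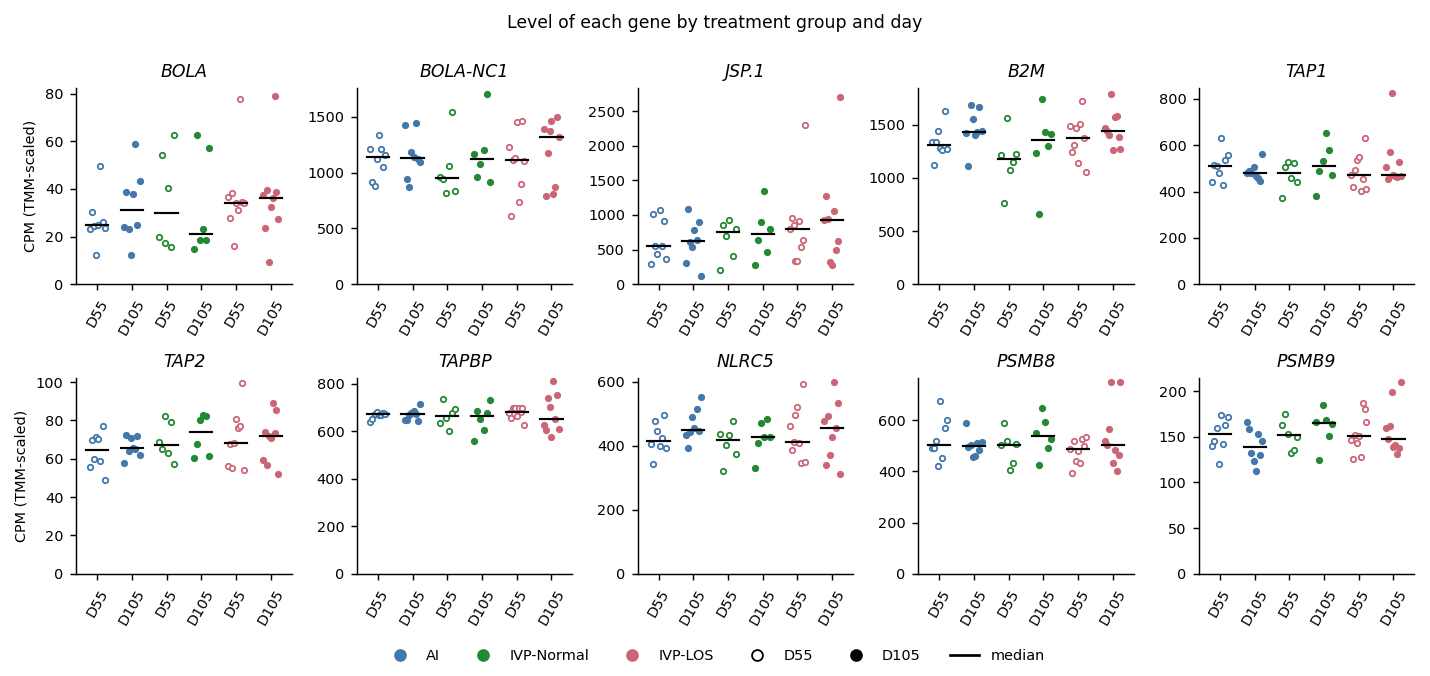
CPM (vertical axis, from 0) of each of the 10 genes in every library, by treatment group (colour) and day (open points D55, filled points D105), with the median of each group as a line. The groups overlap in every panel, and the 2 highest *PSMB8* and *PSMB9* points of the IVP-LOS group on D105 are heifers 604 and 664.

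The treatment groups were compared within each day. None of the 10 genes was called in IVP-Normal against AI, in IVP-LOS against AI or in IVP-LOS against IVP-Normal, on D55 or on D105, and the share of all genes called by edgeR was 0% in all 6 comparisons, with 501 to 1522 genes at an unadjusted p under 0.05. None of the 10 had an unadjusted p under 0.05, the smallest being 0.0803 for *PSMB9* in IVP-Normal against AI on D105 (edgeR FDR = 0.519), and none was called by DESeq2. On D105 the comparisons with IVP-Normal set New against BACKUP libraries, so group and library set cannot be told apart there. Among the 10 genes the largest difference was that of *JSP.1* in IVP-LOS against AI on D105, at 0.62 on the log2 scale (standard error 0.44, edgeR FDR = 0.754), a comparison that lies within the set BACKUP. There the AI heifers had 124.8 to 1091 CPM (median 628 CPM) and the IVP-LOS heifers 281 to 2705 CPM (median 934 CPM), so the groups overlapped from 281 to 1091 CPM. Without heifers 604 and 664 the difference was 0.36. *BOLA* differed most in IVP-LOS against AI on D55, by 0.45 (standard error 0.26, edgeR FDR = 0.675), with 12.3 to 49.6 CPM in AI and 16.0 to 77.9 CPM in IVP-LOS. The row *BOLA_1*, outside the 10, differed more but was not called in any of these comparisons. In IVP-LOS against IVP-Normal it had -1.08 on D55 (edgeR unadjusted p = 0.0412, FDR = 0.839) and -1.25 on D105 (unadjusted p = 0.0183, FDR = 0.999). The change between days was also compared, and it was called for 0 of the 10 genes and 0% of all genes by edgeR in IVP-Normal against AI and in IVP-LOS against AI, with 466 and 808 genes and 0 of the 10 at an unadjusted p under 0.05, or 1 of the 10 in each with the heifer block, which called 0 as well.

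The 2 IVP-LOS fetuses of greatest weight were carried by heifers 604 and 664, of which 604 carried a pair of fetuses. The paper focused on these heifers for that weight and because hierarchical clustering of the same D105 transcriptomes set them apart. The D105 comparison is thus not independent of the choice. Both heifers together were compared with the other 21. On D55, 0 of the 10 genes were called, beside 0.0179% of all genes, and 1 of the 10, *JSP.1*, had an unadjusted p under 0.05 (0.97 on the log2 scale, edgeR FDR = 0.947). It was 2302 CPM in heifer 664 and 339 CPM in heifer 604, with 18 of the 21 others above the latter, and the difference turned to -0.97 without heifer 664. On D105, 21.1% of all genes were called, and 2 of the 10 genes were called, both immunoproteasome subunits and both higher. *PSMB8* had 748 CPM in heifer 604 and 748 CPM in heifer 664, against 403 to 647 CPM (median 503 CPM) in the other 21. This gave 0.57 on the log2 scale (standard error 0.12), with an edgeR FDR of 0.00348. *PSMB9* had 199 CPM in heifer 604 and 210 CPM in heifer 664, against 112.3 to 184 CPM (median 147 CPM). This gave 0.47 on the log2 scale (standard error 0.13), with an edgeR FDR of 0.0139. Both heifers lay above all 21 others for both genes. On D55 they did not, with *PSMB8* at 442 and 533 CPM and the others at 393 to 675 CPM, and *PSMB9* at 144 and 166 CPM and the others at 120 to 187 CPM.

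**Figure D5:**
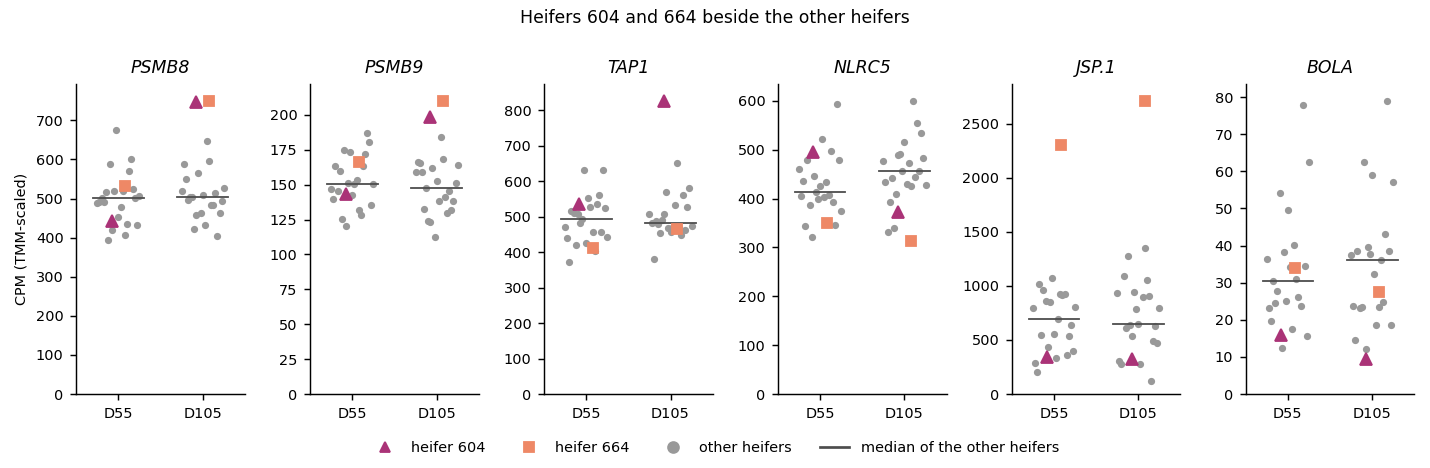
CPM (vertical axis, from 0) of 6 of the genes on D55 and D105 in heifer 604 (triangle), heifer 664 (square) and the other 21 heifers (grey points, with their median as a line). On D105 both heifers lie above all others for *PSMB8* and *PSMB9*, heifer 604 alone for *TAP1* and heifer 664 alone for *JSP.1*.

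With either heifer left out, neither *PSMB8* nor *PSMB9* was called (edgeR FDR of 0.0519 and 0.0857 without 604, and of 0.0541 and 0.160 without 664), while their log2 fold changes stayed between 0.42 and 0.57. With both heifers in the fit none of the other 8 genes was called, while *TAP1* was called without 664 (0.72 on the log2 scale, edgeR FDR = 0.0134). *TAP1* was the highest of all 46 libraries in heifer 604, at 824 CPM, and was 466 CPM in heifer 664, within the 379 to 652 CPM of the others (log2 fold change 0.37, standard error 0.15, edgeR FDR = 0.0658). *NLRC5* was 372 and 313 CPM, against 332 to 599 CPM (log2 fold change -0.42, standard error 0.15, edgeR FDR = 0.0524). DESeq2's likelihood ratio test called both, as did edgeR on the libraries of the set BACKUP alone. *JSP.1* was 326 CPM in heifer 604, with 17 of the 21 others above it, and 2705 CPM in heifer 664, with 0 above it. *BOLA* was 9.35 CPM in heifer 604, the lowest of all 46 libraries, and 27.4 CPM in heifer 664.

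Among the 47 partners, 7 were called in this comparison, 6 of them lower, beside the 21.1% of all genes called. The higher one was *PSMB10*, the remaining catalytic subunit of the immunoproteasome (log2 fold change 0.66, standard error 0.12, edgeR FDR = 0.00174), which was singled out after its value was seen. The summed level of the 9 proteasome partners was 919 and 972 CPM in heifers 604 and 664 and 754 to 913 CPM in the others, while their median log2 fold change was 0.03 and *PSMB10* was the 1 gene of the 9 called. Other features of the 2 libraries moved as well. Monocyte markers were lower, with 5 of 6 called and sums of 126.7 and 104.1 CPM against 222 to 2140 CPM. Neutrophil markers summed to 29.6 and 24.6 CPM against 28.4 to 1906 CPM, with *CAMP* at 0 in heifer 604, and 2 of 4 tested were called lower. Platelet markers were called higher in 4 of 5, with sums of 2569 and 328 CPM against 124.8 to 731 CPM, and B cell markers in 3 of 6. The share of reads on no gene was 38.0% in heifer 604 and 36.1% in heifer 664 on D105, against 23.9% to 30.5%. The part of these features in the higher levels of *PSMB8* and *PSMB9* was not tested.

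The genes most like members of the set, by Pearson's r of log2(CPM + 1) over the 46 libraries, are given as a description, since libraries share heifer, day and library set. *PSMB9* was most like *PSMB10* (r = 0.856), *NDUFB8*, a respiratory chain subunit (r = 0.845), and *PSMB2*, a standard proteasome subunit (r = 0.835). *PSMB8* was most like *MRPL41*, a mitochondrial ribosomal protein (r = 0.917), *LAMTOR4* (r = 0.908) and *UQCR11*, also of the respiratory chain (r = 0.901). *TAP1* was most like *IRF3*, a transcription factor of the interferon response (r = 0.785), *WDR97* (r = 0.730) and *MIER2* (r = 0.702). *TAPBP* was most like *ACTN4* (r = 0.770), *CUX1* (r = 0.748) and *FAM210B* (r = 0.740).

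No gene followed the heavy chains or *B2M* as closely. The best r was 0.616 for *BOLA*, 0.6247 for *BOLA-NC1* (with *COQ6*), 0.601 for *JSP.1* (with *ST14*), 0.618 for *B2M* (with *LRPAP1*) and 0.596 for *TAP2*. The 3 heavy chain genes were not alike either, with r of -0.218 between *BOLA* and *BOLA-NC1*, 0.220 between *BOLA* and *JSP.1* and -0.251 between *BOLA-NC1* and *JSP.1*. *B2M* had r of -0.293, 0.00630 and -0.0830 with them.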

How the data were processed

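Leukocyte RNA of 23 heifers was sequenced on D55 and D105 by the study (46 libraries). According to the study's methods, the authors trimmed reads, aligned them with HISAT2 2.1.0 to ARS-UCD1.2 and counted them with HTSeq in union mode. The deposited values used here are raw counts per NCBI gene. A deposited Ensembl table was not used. Rows for reads on no gene (23.2% to 38.0% per library) stayed out of library sizes and tests. Depth was 18692653 to 24502012 reads per library.

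Groups followed the labels. Genes passing edgeR's filterByExpr (minimum count 10) were tested with the quasi-likelihood F-test of edgeR 4.0.16 in R 4.3.3 after TMM scaling. Benjamini-Hochberg FDR of at most 0.05 over all genes was called, and standard errors are the log2 fold change over the root of F. Correlations used log2(CPM + 1) and 100000 permutations, two-sided, adjusted over all genes, a choice made after seeing the data in place of adjustment over the relations alone. The steps were tested on simulated data. The samples are paired by animal: deviations of the D55 and D105 library of a heifer correlated at 0.280 or more in 23 of 23 heifers, with a mean of 0.530. The D55 library correlated best with the D105 library of its own heifer in 21 of the 23. Alternatives were DESeq2 1.42.0, edgeR's likelihood ratio test, other scaling and filters, a heifer block, left-out heifers and the set BACKUP alone. The 10 genes and all lists were chosen with earlier results of these data known. All 10 genes are named in each comparison, with the up to 5 called partners of smallest FDR in each direction by day, and the 3 most alike genes, those of *NLRC5* not being reported here.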

Additional observations from a re-analysis of the deposited data

Results flagged for a closer look

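In 8 of 60 pairs of a gene and a group of libraries, 1 heifer stood apart by Dixon's test. Its nominal rate of about 1 in 20 holds for normally distributed values, while CPM were tested unlogged. The 60 pairs are not independent either, since the same heifers enter on both days, so the count cannot be set against that rate. Of the 8, 6 were the same heifer and gene on both days. *BOLA* in heifer 656 (IVP-LOS) was 77.9 CPM on D55 and 78.8 CPM on D105, with the next heifers at 38.2 and 39.6 CPM. *BOLA-NC1* in heifer 669 (IVP-Normal) was 1546 and 1703 CPM, with the next at 1062 and 1205 CPM. *JSP.1* in heifer 664 (IVP-LOS) was 2302 and 2705 CPM, with the next at 957 and 1277 CPM. The other 2 were found on D105 alone. *TAP1* in heifer 604 (IVP-LOS) was 824 CPM beside 570.04 CPM, and *PSMB8* in heifer 517 (AI) was 588 CPM beside 515 CPM.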

How the results depend on the processing

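In 12 comparisons (days, treatment groups, changes between days, and heifers 604 and 664 on D55), 0 of the 10 genes were called in all 76 alternative fits, the replicate block included. For heifers 604 and 664 on D105, 2 genes were called. This became 4 (*TAP1*, *NLRC5*, *PSMB8* and *PSMB9*) with DESeq2 and 4 with libraries of the set BACKUP alone, and from 0 (without heifer 604) to 1 (*TAP1*, without heifer 664) with a heifer left out. Without heifer 604 and without heifer 664, respectively, the log2 fold change was 1.77 and -0.97 for *JSP.1* on D55, and on D105 it was 1.93 and -1.14 for *JSP.1*, 0.338 (without 664) and -0.137 (without 604) for *B2M*, -0.0852 and 0.72 for *TAP1*, -0.422 and 0.0283 for *TAP2*, and -0.119 and 0.0647 for *TAPBP*. A lone heifer has no spread of its own and was assumed to vary like the others. Small values also changed sign: *BOLA* by day in IVP-LOS to 0.0352 without heifers 604 and 664, *TAPBP* in the D105 comparison of those heifers to 0.0014 with upper-quartile scaling, and the r of *NLRC5* with *TAPBP* on D55 to -0.13 without them. The cause was not tested. The correlation of *TAP1* between days was r = 0.449 once centred on group and day (permutation p = 0.0296, not adjusted over all genes). Without heifers 604 and 664, the day change of *PSMB8* in IVP-LOS fell from 0.18 to 0.02 and *JSP.1* in IVP-LOS against AI on D105 from 0.62 to 0.36, neither called in any fit. Over all genes, calls ranged over the alternatives from 1194 to 2603 by day in AI, 374 to 838 in IVP-Normal and 12 to 558 in IVP-LOS, from 0 to 43 between treatment groups, and for heifers 604 and 664 from 0 to 9 on D55 and 567 to 4976 on D105. The 2 alternatives on the Ensembl table were not run, since no table here pairs its identifiers with symbols.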
